A study of Homo sapiens with 4 samples.

Results

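The TAM family consists of 3 receptor tyrosine kinases, AXL, TYRO3 and MERTK, and is described here with its 2 vitamin K-dependent ligands, GAS6 and PROS1 (protein S). These 5 genes were taken by symbol from a table of 60302 genes, and each symbol had a single row. They were selected on the AXL FPKM values, because AXL was lower in both hnRNPF knockdown samples than in both controls, so the knockdown difference of the family is given as a description with no test. The samples were HMLE cells, human mammary epithelial cells immortalised with telomerase and the SV40 early region. Both groups carried a lentiviral short hairpin RNA stably: a non-specific one in the 2 control samples, and one against hnRNPF in the 2 knockdown samples. The design text counts 2 cell lines per group. It does not say whether the lines of a group carry different hairpins or came from separate infections, so any p-value measures only the spread between these samples. PolyA-selected RNA was sequenced in stranded paired-end libraries, and the values are FPKM, fragments scaled to gene length and sequencing depth.

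In the TAM system a ligand bridges 2 surfaces. The amino-terminal Gla domain of GAS6 or PROS1, once carboxylated with the help of vitamin K, binds phosphatidylserine exposed on dying cells and vesicles, and the carboxy-terminal laminin G domains bind the receptor. GAS6 binds all 3 receptors and is the known ligand of AXL, whereas PROS1 acts on TYRO3 and MERTK and also circulates as an anticoagulant cofactor. The receptors signal through PI3K, AKT and GRB2 and damp interferon signalling. In epithelial cells AXL is known for its link with migration, the mesenchymal state and drug resistance, and MERTK is known mostly from macrophages and the retina.

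The targeted gene HNRNPF measured 154 and 153 FPKM (controls) against 18.7 and 16.6 FPKM (knockdown), 8.71-fold lower (log2 fold change -3.05, SE 0.0986, limma adjusted p = 0.0251), in the direction its labels give. In limma the adjusted p missed the threshold without control 1 (adjusted p = 0.262), without control 2 (adjusted p = 0.104), with no filter (adjusted p = 0.259) and without the intensity trend (adjusted p = 0.0995). With all 4 samples no other gene of the 13110 with enough signal to be tested (mean FPKM of 1 or more) had a limma adjusted p below 0.05, so 0.00763% were called. The sums of FPKM were between 391184 and 396135, and the number of fragments per library is not known from the table. The basal keratin genes KRT5 (3203 to 4878 FPKM) and KRT14 (2467 to 3984 FPKM) and the basal transcription factor gene TP63 (19.5 to 30.9 FPKM) were present in all 4 samples. Luminal markers were present too: 4 of the 7 passed the filter, while ELF5 was at or near 0 and ESR1 stayed under 0.44 FPKM. The leukocyte gene PTPRC and the endothelial gene CDH5 were at most 0.0384 and 0.0242 FPKM.

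AXL (ENSG00000167601.11, chromosome 19, 41725108 to 41767671 on the plus strand, GRCh37) was the most abundant TAM receptor gene in every sample. Control 1 had 62.6 FPKM and control 2 had 53.5 FPKM, while knockdown 1 had 35.3 FPKM and knockdown 2 had 38.5 FPKM. Both knockdown samples lay below both controls, as the choice of the gene requires, and the 15.0 FPKM between the nearest samples of the groups exceeded the 9.13 FPKM between the controls. The means were 58.0 ± 6.45 and 36.9 ± 2.30 FPKM (SD, n = 2 each), 1.57-fold lower in knockdown. Within replicate number 1 the knockdown sample was 1.78-fold lower, and within number 2 it was 1.39-fold lower. The labels do not say what a shared number stands for. On the log2(FPKM + 1) scale, which slightly understates changes, the difference was -0.64. Of the genes tested 1.31% had a lower value, a low rank that the choice of AXL favours. In bulk RNA, fewer AXL-expressing cells and less AXL RNA per cell cannot be told apart.

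**Figure D1:**
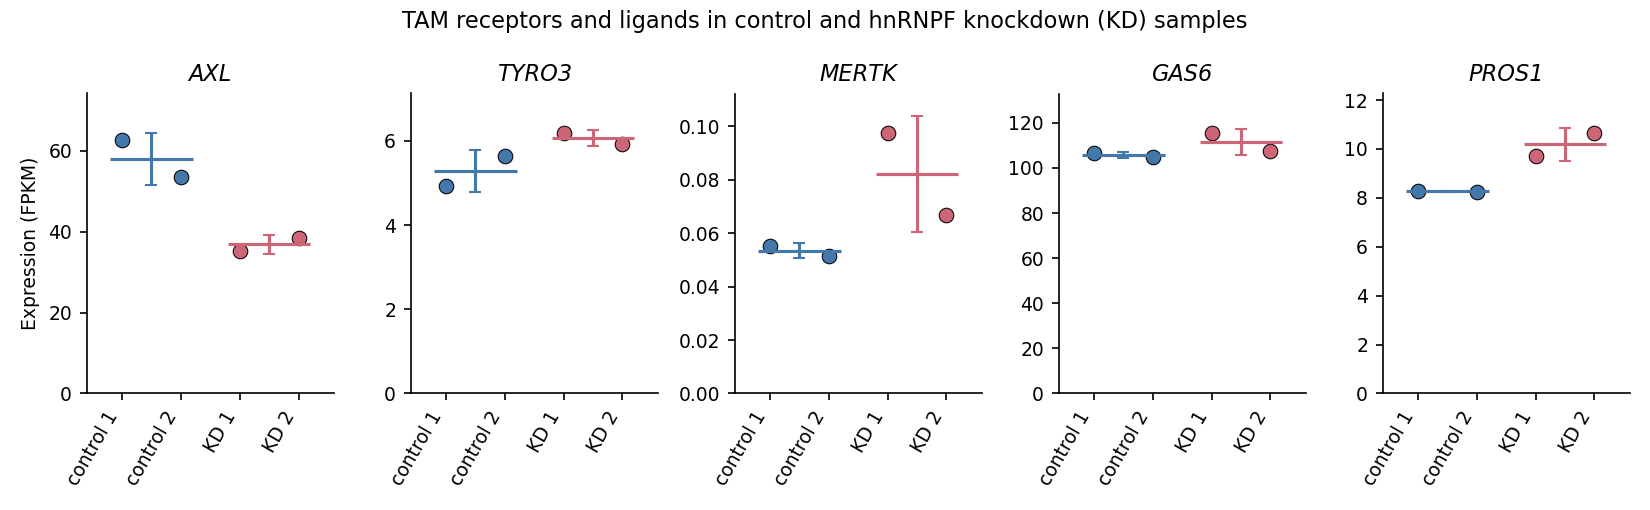
FPKM (linear axes from 0, one scale per gene) of the 5 TAM genes in each control (blue) and hnRNPF knockdown (KD, red) sample, with the group mean as a line and the SD as a bar (n = 2). AXL sits at 53.5 to 62.6 FPKM in the controls and at 35.3 to 38.5 FPKM in knockdown. For each of the other 4 genes both knockdown samples lie above both controls. For TYRO3, MERTK and GAS6 the gap between groups is smaller than the larger of the gaps within a group.

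The gene-level value of AXL sums its isoforms, and exon usage was not analysed here. The GENCODE 29 annotation (GRCh38) holds coding transcripts with and without exon 10 (27 bases, chr19:41239694-41239720, plus strand), which lies in the extracellular part of the receptor. It is shown, in capitals between 30 bases of each flanking exon, because hnRNP F is a splicing regulator and the FPKM cannot tell the 2 forms apart.
AXL exon 10: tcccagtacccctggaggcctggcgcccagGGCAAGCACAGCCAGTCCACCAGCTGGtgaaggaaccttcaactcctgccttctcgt

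No annotated gene in the table overlapped AXL on its strand, and sharing of reads in other ways was not tested. On the opposite strand the clone-named gene CTD-2195B23.3 overlapped it and was listed at 0 in all 4 samples. Neither tested neighbour had both knockdown samples below both controls. CYP2S1, a cytochrome P450 gene 11664 bp upstream, was at 1.81 and 1.78 FPKM (controls) against 1.89 and 1.92 FPKM (knockdown). HNRNPUL1, an RNA-binding protein gene 730 bp downstream, was at 81.6 and 83.5 FPKM (controls) against 77.3 and 91.0 FPKM (knockdown), so its groups overlapped.

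RefSeq lists 2 starts for AXL on GRCh38.p14, and the 250 bases before and 50 after each are shown because genes reported to activate AXL are among the results. Capitals mark matches, on either strand, to an Sp1 box (GGGCGG), a loose AP-1 site (TGANTCA, where N is any base) or a TEAD site (GGAATG).
AXL start A, chr19:41218973-41219272, plus strand: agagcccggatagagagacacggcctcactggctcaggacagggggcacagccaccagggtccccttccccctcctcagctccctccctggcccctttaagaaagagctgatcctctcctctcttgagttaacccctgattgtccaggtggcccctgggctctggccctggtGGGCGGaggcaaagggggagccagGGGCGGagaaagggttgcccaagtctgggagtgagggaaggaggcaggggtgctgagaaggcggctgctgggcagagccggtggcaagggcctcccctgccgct
AXL start B, chr19:41226505-41226804, plus strand: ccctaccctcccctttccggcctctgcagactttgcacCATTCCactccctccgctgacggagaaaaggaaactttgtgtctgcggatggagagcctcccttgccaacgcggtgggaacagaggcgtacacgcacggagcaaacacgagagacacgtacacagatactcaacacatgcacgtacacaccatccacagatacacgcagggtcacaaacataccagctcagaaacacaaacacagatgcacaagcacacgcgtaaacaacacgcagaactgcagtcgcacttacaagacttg
The first window holds 2 Sp1 boxes and neither of the other motifs, and the second holds 1 TEAD match (as CATTCC) and neither of the others. Of the 35116 promoter windows of the same span in the RefSeq table, 44.95% hold the Sp1 box, 7.71% the AP-1 site and 14.0% the TEAD site. The promoter windows of GAS6, MERTK and PROS1 hold 3, 5 and 2 Sp1 boxes. One of the windows of TYRO3 holds 3 Sp1 boxes and 1 match to the loose AP-1 site (as TGAATCA), and its other window holds none of the 3 motifs. A match in letters is not a binding site, and no binding was measured.

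TYRO3 (ENSG00000092445.11, chromosome 15, 41849873 to 41875784, plus strand), the receptor gene known best from the nervous system, was far below AXL, which was 12.7 and 9.5 times as high in the controls and 5.69 and 6.496 times as high in knockdown. It was at 4.93 and 5.63 FPKM (controls) against 6.19 and 5.93 FPKM (knockdown). The groups did not overlap, but the 0.300 FPKM between them was smaller than the 0.700 FPKM between the controls. The means were 5.28 ± 0.495 and 6.06 ± 0.189 FPKM (SD, n = 2 each), 1.148-fold higher in knockdown. Its pseudogene TYRO3P, which could share reads with it, was listed at no more than 0.0174 FPKM.

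MERTK (ENSG00000153208.16, chromosome 2, 112656056 to 112787138, plus strand) was close to absent. It was listed at 0.0553 and 0.0514 FPKM (controls) against 0.0976 and 0.0669 FPKM (knockdown), and it did not reach the mean of 1 FPKM for testing, which 4 of the 5 genes did. The 0.0116 FPKM between the groups was smaller than the 0.0307 FPKM between the knockdown samples. The fragments behind these values are not known, so the counting error of a gene this low could not be given.

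GAS6 (ENSG00000183087.14, chromosome 13, 114523522 to 114567040, minus strand), the ligand of all 3 receptors, had the highest FPKM of the family. It was at 106.7 and 104.9 FPKM (controls) against 115.7 and 107.4 FPKM (knockdown). The lower knockdown sample was 0.684 FPKM above the higher control, whereas the knockdown samples lay 8.29 FPKM apart. The means were 105.8 ± 1.27 and 111.5 ± 5.86 FPKM (SD, n = 2 each), 1.05-fold higher in knockdown. GAS6-AS2, an antisense gene that starts beside GAS6 on the opposite strand, was at 1.96 and 2.53 FPKM (controls) against 2.74 and 3.34 FPKM (knockdown). GAS6-AS2 does not overlap GAS6. GAS6-AS1, which overlaps GAS6 on the opposite strand, was listed at 0.084 and 0.131 FPKM (controls) against 0.074 and 0.123 FPKM (knockdown). How strand was used in counting is not given in the sources used here.

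PROS1 (ENSG00000184500.14, chromosome 3, 93591877 to 93692910, minus strand), the protein S gene, was at 8.29 and 8.24 FPKM (controls) against 9.71 and 10.7 FPKM (knockdown). Both knockdown samples were higher, and the 1.42 FPKM between the groups exceeded the 0.962 FPKM between the knockdown samples. The means were 8.26 ± 0.0313 and 10.2 ± 0.681 FPKM (SD, n = 2 each), 1.23-fold higher in knockdown. The difference was 0.27 on the log2(FPKM + 1) scale, and 89.3% of the genes tested had a lower one.

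Of the 4 members tested, AXL had both knockdown samples below both controls, as 17.1% of all genes tested did, and TYRO3, GAS6 and PROS1 had both above, as 17.5% did. None of the 4 passed the adjusted threshold in limma, which 0.00763% of genes passed. The choice of the genes used this contrast, so nothing is read from these counts.

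The makeup of the family differed between the groups with AXL. AXL gave 92.6% and 90.4% of the summed receptor FPKM in the control samples, against 84.9% and 86.5% in the knockdown samples. Summed over the 3 receptors, the level was 67.6 and 59.1 FPKM (controls) against 41.5 and 44.5 FPKM (knockdown), whereas the 2 ligands summed to 115.0 and 113.1 FPKM (controls) against 125.4 and 118.0 FPKM (knockdown). The ratio of GAS6 to AXL in FPKM was therefore 1.70 and 1.96 (controls) against 3.28 and 2.79 (knockdown). These ratios rest on the AXL values that chose the genes and are not further evidence. They compare RNA levels per length, not protein.

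Sequence features of the coding regions, which the choice of the genes did not use, differed within the family. hnRNP F is known to bind G-rich RNA, so the 4-base sequence GGGA was counted on the sense strand of the longest complete coding sequence of each gene in GENCODE 29. AXL had 25 in 2682 bases (9.32 per kb), more per kb than 93.7% of 11399 coding genes tested, whose median was 4.74 per kb. TYRO3, GAS6 and MERTK had 7.49, 6.39 and 6.01 per kb, more than 84.3%, 74.1% and 69.6% of the same genes. PROS1 had 2 in 2124 bases (0.942 per kb), and 3.18% of genes had fewer per kb. PROS1 was in turn the only member whose coding sequence held 4 runs of at least 3 G separated by 1 to 7 bases, the letter pattern used to search for G-quadruplexes, and 6.54% of the coding genes hold one. It is shown, with the G runs in capitals, since the series concerns RNA G-quadruplexes, and it begins at base 5 of the coding sequence, in the codons of the signal peptide.
PROS1 coding bases around the match: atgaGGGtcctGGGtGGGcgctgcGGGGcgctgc
With 5 genes and 4 samples no relation between these counts and the knockdown difference was tested, and neither folding nor binding was measured.

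AXL was one of the most abundant receptor tyrosine kinase genes of these cells. Among 58 such genes, the 55 others and the 3 TAM receptors, it ranked 3 in both controls, and 8 and 7 in knockdown samples 1 and 2. In the controls its mean lay below that of the collagen receptor gene DDR1 (64.7 ± 0.367 FPKM) and above that of EGFR (55.2 ± 15.0 FPKM). The controls of EGFR (65.8 and 44.6 FPKM) enclosed those of AXL, so AXL and EGFR did not differ beyond their spread, and both DDR1 values were higher than both AXL values. In knockdown its next neighbour above was PTK7 (40.1 and 47.4 FPKM) and its next below MST1R (40.3 and 29.96 FPKM), whose samples enclosed those of AXL. TYRO3 ranked 17 by control mean and 15 by knockdown mean. Its neighbours FGFR2 (5.26 and 5.38 FPKM) and EPHB3 (4.44 and 6.01 FPKM) overlapped it in the controls. MERTK ranked 33 in both.

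**Figure D2:**
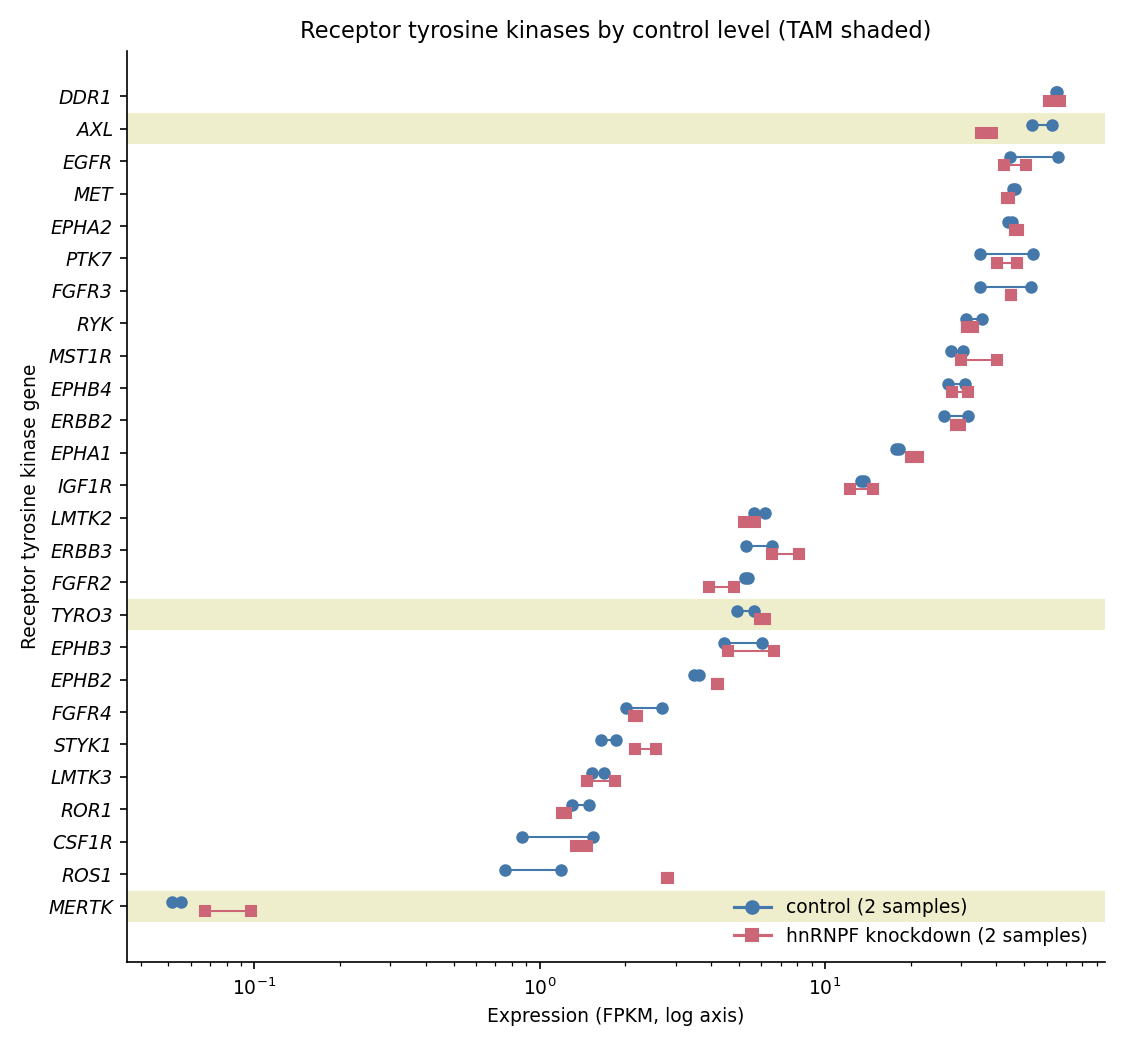
FPKM (log axis) of the receptor tyrosine kinase genes that passed the filter, and of MERTK, ordered by control mean, with both controls as blue circles and both knockdown samples as red squares joined within a group. AXL (shaded, as are TYRO3 and MERTK) is the second gene from the top in the controls, and its knockdown samples at 35.3 and 38.5 FPKM lie left of its controls.

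The other receptor tyrosine kinases showed no common shift. Of the 55 genes, 23 were tested and limma called 0. At an unadjusted p under 0.05 limma counted 0 lower and 1 higher, against 6.08% of all genes tested (3.02% lower and 3.06% higher). Of the 23, 9 had a log2 fold change below 0 and 14 above, and the median was 0.03, against 0.0012 over all genes tested. The groups did not overlap for 8 of the 23, against 34.6% of all genes tested. The 1 counted higher was ROS1, an orphan-type receptor kinase gene, at 0.758 and 1.19 FPKM (controls) against 2.83 and 2.80 FPKM (knockdown) (limma adjusted p = 0.54). Its control mean of 0.973 FPKM lay below the filter, which ROS1 passed only through the knockdown samples, so nothing is read from its difference. The ephrin receptor gene EPHA1 was at 17.8 and 18.2 FPKM and then 21.2 and 20.1 FPKM (limma adjusted p = 0.89). DDR1, the most abundant, was at 65.0 and 64.5 FPKM and then 61.1 and 67.0 FPKM, with overlapping groups. AXL had the lowest log2 fold change of the 25 receptor tyrosine kinase genes tested, TAM receptors included, which its choice favours.

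A further list held genes that mature or substitute for the ligands, or that shed the receptors. Of 10 genes 8 were tested, with 7 below 0 and 1 above, against 49.8% of all genes tested below 0, a median of -0.12, and 0 called in limma. Without adjustment 2 lower and 0 higher had a limma p under 0.05, against 3.02% and 3.06% of all genes tested. The knockdown samples were both lower for 4 of the 8 and both higher for 1, against 17.1% and 17.5% of all genes tested. FURIN, a proprotein convertase, was at 41.1 and 45.03 FPKM (controls) against 22.7 and 28.9 FPKM (knockdown) (1.67-fold lower, limma adjusted p = 0.586). CALU, which encodes calumenin, a calcium-binding protein of the secretory pathway that inhibits gamma-carboxylation, was at 66.7 and 51.0 FPKM (controls) against 34.1 and 35.9 FPKM (knockdown) (1.68-fold lower, limma adjusted p = 0.608). As for AXL, control 1 was the highest sample for CALU. The gamma-carboxylase gene GGCX had overlapping groups (11.9 and 9.05 FPKM, then 9.70 and 8.20 FPKM). VKORC1, which recycles vitamin K, was at 29.8 and 29.9 FPKM (controls) against 27.6 and 28.3 FPKM (knockdown). The AXL sheddase genes ADAM10 (16.8 and 14.8 FPKM, then 14.1 and 13.9 FPKM) and ADAM17 (16.2 and 16.4 FPKM, then 16.8 and 17.7 FPKM) lay on opposite sides of 0. LGALS3, a galectin proposed as a MERTK ligand, was the most abundant of the list and overlapped (101.9 and 105.8 FPKM, then 92.1 and 107.2 FPKM), and its log2 fold change of -0.06 turned to 0.05 without knockdown 1.

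The other proteins with a Gla domain were largely silent. Of 12 genes 3 were tested, with 2 below 0, 1 above, a median of -0.11 and 0 called in limma. The unadjusted limma p was under 0.05 for 0 of them, against 6.08% of all genes tested. F7, F9, F10, PROZ and PRRG3 were listed at 0 in all 4 samples. PRRG4, a transmembrane Gla protein gene, was at 8.94 and 8.78 FPKM (controls) against 8.01 and 8.30 FPKM (knockdown) (limma adjusted p = 0.993), and PRRG1 at 8.87 and 7.45 FPKM and then 7.78 and 6.97 FPKM, with overlapping groups. Among all 14 Gla protein genes, the 12 and the 2 ligands, GAS6 was the highest in every sample.

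**Figure D3:**
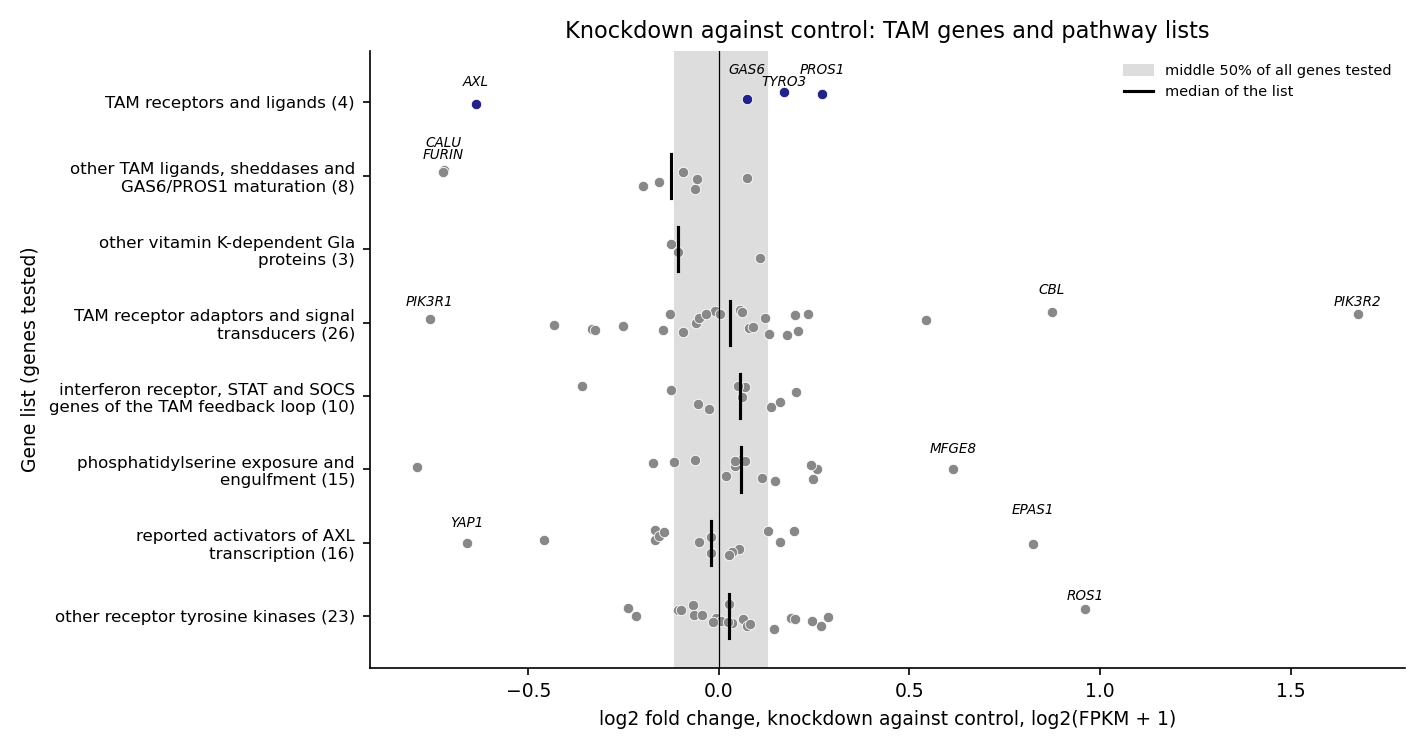
Log2 fold change of knockdown against control on the log2(FPKM + 1) scale (x axis) for each tested gene of the TAM family (dark blue) and of 7 related lists (grey, median as a black bar, number tested in brackets), with the middle 50% of all genes tested shaded. AXL (-0.64) lies left of the shaded band and PROS1 (0.27) right of it, and most listed genes lie within or near the band.

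Among adaptors and signal transducers of TAM receptors, all 26 genes were tested, 12 were below 0 and 14 above, the median was 0.03 and 0 were called in limma. An unadjusted limma p under 0.05 was found for 2 lower and 1 higher, against 3.02% and 3.06% of all genes tested. Groups did not overlap for 9 of the 26 (6 lower, 3 higher), against 34.6% of all genes tested. PIK3R1, which encodes the p85-alpha subunit that recruits PI3K to activated receptors, was at 10.7 and 11.1 FPKM (controls) against 6.21 and 5.88 FPKM (knockdown) (1.81-fold lower, limma adjusted p = 0.513). RAC1, a GTPase gene of the cytoskeleton and the most abundant of the list, overlapped between groups (125.3 and 133.3 FPKM, then 126.4 and 132.5 FPKM). PIK3R2 and the ubiquitin ligase gene CBL, chosen after their values were seen, had the highest log2 fold changes, and control 1 set both. PIK3R2 was at 0.44 FPKM in control 1 and at 11.2, 10.2 and 15.0 FPKM in control 2 and knockdown samples 1 and 2. CBL was at 2.34 FPKM in control 1 and at 11.4, 11.96 and 9.70 FPKM in the others. Within replicate number 2 alone their log2 fold changes were 0.39 and -0.21.

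The interferon receptor, STAT and SOCS genes, which TAM receptors engage in immune cells, had 10 of 10 tested, 4 below 0 and 6 above, a median of 0.06 and 0 called in limma. Again 0 had an unadjusted limma p under 0.05, against 6.08% of all genes tested. The kinase gene TYK2 was at 43.9 and 35.6 FPKM (controls) against 34.8 and 26.8 FPKM (knockdown) (limma adjusted p = 0.876). TWIST1, a transcription factor gene, was at 2.25 and 1.76 FPKM and then 2.59 and 2.30 FPKM (limma adjusted p = 0.95). For both genes the gap between the groups was smaller than that between the controls.

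Of 20 genes of phosphatidylserine exposure and engulfment 15 were tested, 4 were below 0 and 11 above, the median was 0.06 and 0 were called in limma. At an unadjusted p under 0.05 limma counted 1 lower and 2 higher, against 3.02% and 3.06% of all genes tested. Groups did not overlap for 6 of the 15, against 34.6% of all genes tested. MFGE8, which bridges phosphatidylserine to integrins, was at 42.5 and 39.6 FPKM and then 74.9 and 53.6 FPKM (1.57-fold higher, limma adjusted p = 0.772). CALR, the calreticulin gene and the most abundant, was at 306.8 and 323.3 FPKM and then 274.4 and 306.5 FPKM.

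The 16 genes reported to activate AXL transcription were all tested. Of these 9 were below 0 and 7 above, the median was -0.02 and 0 were called in limma. Counting unadjusted limma p under 0.05 gave 1 lower and 1 higher, against 3.02% and 3.06% of all genes tested. Groups did not overlap for 4 of the 16 (3 lower, 1 higher), against 34.6% of all genes tested. YAP1, a coactivator of the TEAD factors, was at 71.6 and 81.9 FPKM (controls) against 44.8 and 51.5 FPKM (knockdown) (1.59-fold lower, limma adjusted p = 0.54). Both its knockdown samples were lower. The difference was -0.66 within replicate number 1 and -0.66 within number 2, a pairing that the labels do not explain. EPAS1, which encodes the hypoxia-inducible factor HIF-2-alpha, was at 18.1 and 21.6 FPKM and then 33.6 and 38.2 FPKM (1.81-fold higher, limma adjusted p = 0.513). The AP-1 gene FOSL1 overlapped between groups (40.7 and 41.0 FPKM, then 50.2 and 32.2 FPKM), as did SP3 (19.4 and 9.67 FPKM, then 16.7 and 15.1 FPKM).

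Markers of the mesenchymal state, with which AXL is often found, did not share a direction. VIM was at 213.8 and 209.0 FPKM (controls) against 163.2 and 171.4 FPKM (knockdown), and FN1 at 1179 and 1353 FPKM and then 1482 and 2105 FPKM (limma adjusted p = 0.724 and 0.859). Of the 9 mesenchymal markers 5 were tested, with 1 below 0 and 4 above. Their summed FPKM was 1526 to 1671 in the controls and 1792 to 2407 in knockdown, most of it FN1. ZEB1, ZEB2, CDH2 and PRRX1 stayed under 0.42 FPKM. Summed basal markers were at 7378 to 11057 FPKM in the controls and 9366 to 10492 FPKM in knockdown, with 3 of the 6 tested below 0, and summed luminal markers at 425.9 to 471.4 and 417.6 to 454.5 FPKM, with 1 of the 4 tested below 0. Fibroblast markers summed to 10.2 to 11.8 FPKM and then 12.5 to 13.5 FPKM, nearly all COL1A1, and DCN stayed under 0.022 FPKM. Leukocyte markers summed to 14.1 to 14.7 FPKM and then 13.7 to 14.2 FPKM, mostly CD68, with AIF1 at 0. The 4 endothelial markers listed summed to no more than 0.145 FPKM. The part of cell composition in the AXL difference was not tested.

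The 5 genes whose values over the 4 samples were most like those of AXL were NOTCH2NL, RBPJ, UCA1, COPZ1 and GALNT3. Likeness was the Euclidean distance between log2(FPKM + 1) values centred on each gene's mean, which was 0.055 to 0.097 for these genes, against a median of 0.718 over all genes tested. RBPJ, the transcription factor gene of Notch signalling, was at 12.8 and 10.9 FPKM (controls) against 7.27 and 7.499 FPKM (knockdown). COPZ1, a coatomer subunit gene, was at 86.3 and 73.4 FPKM and then 51.8 and 51.9 FPKM. GALNT3, which starts mucin-type glycosylation, was at 38.0 and 32.0 FPKM and then 22.8 and 22.9 FPKM. The long noncoding RNA gene UCA1 was at 23.6 and 18.6 FPKM and then 12.5 and 14.0 FPKM. NOTCH2NL (30.5 and 27.1 FPKM, then 17.9 and 19.2 FPKM) has near-identical relatives among which reads may be split, so its value is uncertain. All 5 had control 1 as the highest sample, as AXL did. The small distances follow from the choice of the closest genes, which also favours a shared order of samples. With 4 samples such a match describes these libraries only.

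**Figure D4:**
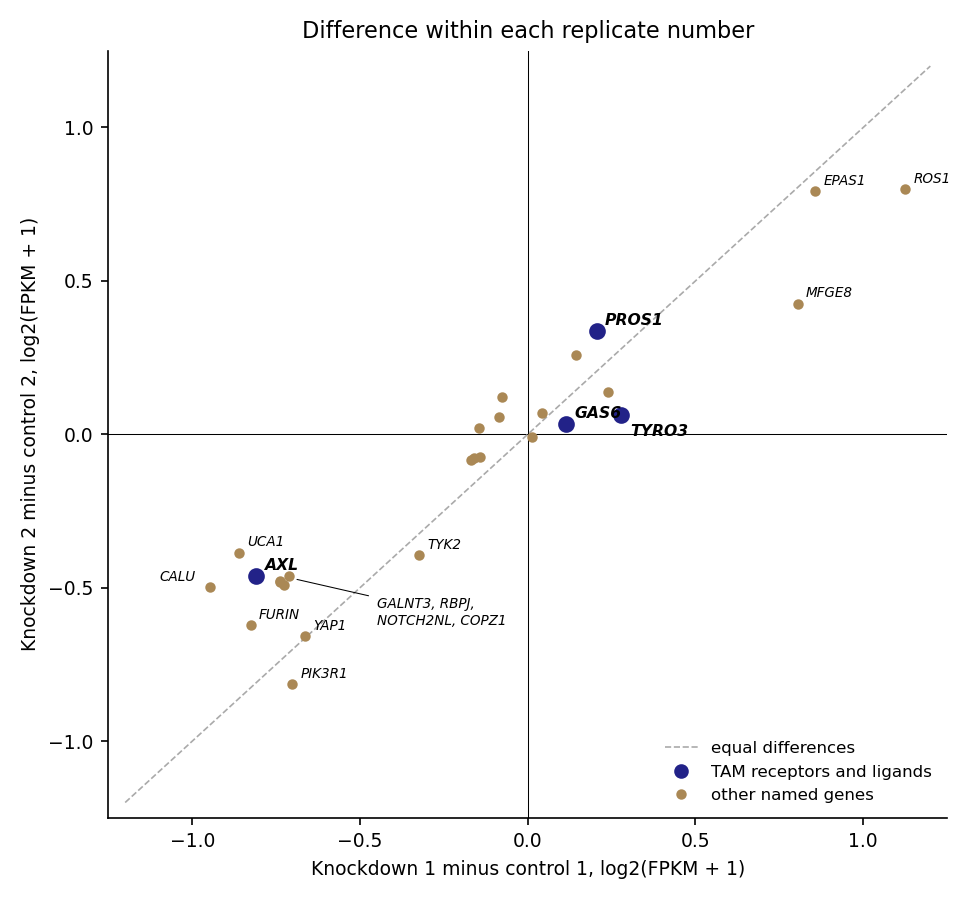
Difference in log2(FPKM + 1) between knockdown 1 and control 1 (x axis) and between knockdown 2 and control 2 (y axis) for the 4 tested TAM genes (dark blue) and other named genes (brown), with HNRNPF left out. AXL lies at -0.81 and -0.46 beside its 5 most alike genes, and TYRO3, GAS6 and PROS1 lie at small positive values on both axes. What a shared replicate number stands for is not given.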

How the data were processed

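The deposited table gives FPKM per gene, computed by the authors, for 2 control and 2 hnRNPF knockdown samples, per the file headers. GRCh37, Cuffdiff 2.2.1 and STAR 2.5.3a are listed in the submitters' processing notes, without roles, and which annotation release was used is not given in the sources used here. Fragment totals are not listed. Low values of single-exon genes of at least 500 bp gave a step per library, but only 49.1% to 51.4% of them were whole multiples of it within 0.02, so fragment counts could not be rebuilt and only log-scale tests fit the values.

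The 13110 genes whose mean reached 1 FPKM were compared as log2(FPKM + 1) with limma 3.58.1 in R 4.3.3 (intensity trend, all 4 samples, no covariate, two-sided, Benjamini-Hochberg adjustment over all genes, threshold 0.05). With 2 against 2 samples the smallest exact permutation p is 0.333, and no such test is given. Fold values are ratios of mean FPKM. The family and the gene lists were chosen with earlier results of these data known.

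Named genes were the 5 members, HNRNPF, the 2 with the smallest p and the most abundant of each list, the 5 most like AXL (without pseudogenes, small RNA genes and clone names), and AXL's neighbours; other genes named were picked after their values were seen, and some genes the rule names are not reported here. Alternatives comprised leaving out each sample, adding replicate number as a block, robust estimation, dropping the trend, median-ratio or quantile scaling, dropping the filter or raising it to 5 FPKM, and a pseudocount of 0.1 or 0.5 FPKM; summing overlapping genes on one strand was added after seeing the data. Promoters came from RefSeq (GRCh38.p14; all 5 genes matched) and coding sequences from GENCODE 29 (GRCh38). Python 3.11.15 was used for the rest.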

Additional observations from a re-analysis of the deposited data

How the results depend on the processing

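The log2 fold changes of AXL, TYRO3, GAS6 and PROS1 kept their sign under all 13 alternatives, most of which could not have turned it. With groups that did not overlap, neither leaving out 1 sample nor another pseudocount can turn a sign. The filter, trend, robust and block alternatives leave a log2 fold change as it is. Only median-ratio and quantile scaling could have turned it. AXL ranged from -0.65 to -0.62 over the alternatives that kept all samples and from -0.75 to -0.53 without 1 sample. Without 1 sample TYRO3 ranged from 0.091 to 0.252, GAS6 from 0.021 to 0.128 and PROS1 from 0.209 to 0.333. MERTK, at 0.039, moved to 0.244 with a pseudocount of 0.1 FPKM and 0.073 with 0.5 FPKM, since it lies far below 1 FPKM. Its sign held under the alternatives where it could be fitted, which its non-overlapping groups fixed in advance.

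The count of genes called, 1 in all, was 0 with no filter (949 higher and 754 lower at an unadjusted p under 0.05), 0 without the intensity trend (420 and 369) and 0 with the replicate block, where HNRNPF kept its log2 fold change of -3.05 with limma adjusted p-values of 0.259, 0.0995 and 0.164. Without 1 sample the count lay between 0 (without control 1, with 342 higher and 251 lower at an unadjusted p under 0.05, or control 2, with 405 and 482) and 2 (HNRNPF and BLOC1S5-TXNDC5 without knockdown 2) and HNRNPF between -3.13 and -2.98. Same-numbered samples deviated together (correlation 0.39 over genes, 2 pairs), but the labels do not say what a number stands for, so the samples were not treated as paired; the block left 972 genes higher and 818 lower at an unadjusted p under 0.05, against 401 and 396.

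With no filter the Gla protein median moved to 0.025, and with quantile normalization that of the other receptor kinases to 0.0599. Without 1 sample the medians ranged from -0.168 to -0.08 for ligand maturation, -0.119 to -0.015 for Gla proteins, -0.00699 to 0.043 for adaptors, -0.021 to 0.137 for interferon genes, -0.038 to 0.138 for phosphatidylserine genes, -0.084 to 0.019 for AXL activators and -0.0102 to 0.13 for the other receptor kinases. RAC1, LGALS3, DDR1, HNRNPUL1 and CYP2S1, all near 0, changed sign: without 1 sample LGALS3 ranged from -0.171 to 0.046, RAC1 from -0.0424 to 0.0463, DDR1 from -0.0813 to 0.0495 and HNRNPUL1 from -0.094 to 0.138, and with quantile normalization DDR1 was at 0.013 and CYP2S1 at -0.0022. Over all genes tested, the median itself moved from 0.0012 to 0.062 without control 1 and to -0.063 without control 2. It was -0.057 without knockdown 1 and 0.061 without knockdown 2. The ranges given for lists and genes without 1 sample were not adjusted for this shift. The causes were not tested. With 2 samples per group and no fragment counts, the gap between groups was smaller than that between the controls for TYRO3 and GAS6. For GAS6 it was also smaller than that between the knockdown samples.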
